A study of Mus musculus with 1047 samples.

Results

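The 8 genes Gzma, Gzmb, Gzmk, Prf1, Nkg7, Ifng, Ccl5 and Pdcd1 mark the killing and effector functions of T cells, and they were followed through droplet and plate-based single-cell data of mouse brain. The genes were chosen by name, and all 8 were among the 20765 genes of the aged droplet data and the 20736 genes of the ApoeKO droplet data. T cells were taken as cells with at least 1 unique molecular identifier (UMI, a count of 1 captured RNA molecule) in 2 or more of Cd3d, Cd3e and Cd3g, which encode the CD3 chains of the T cell receptor complex. By this rule 1185 of 21197 aged cells and 296 of 2730 ApoeKO cells were T cells, and every other cell used was a reference cell. The ApoeKO data held 13954 columns, of which these 2730 were used.

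Cytotoxic lymphocytes store granzymes, a family of serine proteases, in granules together with perforin, the pore-forming protein through which granzymes enter a target cell. Activated T cells and natural killer cells also release interferon gamma and the chemokine CCL5, and the receptor PD-1 restrains T cells after activation. Few T cells enter the healthy young brain, while CD8 T cells are known to gather in the aged brain, white matter included.

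The droplet (10x) samples were pools of male mice. Labels gave 4 ApoeKO white matter samples of the strain B6.129P2-Apoetm1Unc/J at 18 months, from pools of 2, and 5 samples titled wild type (WT) of C57BL/6J at 24 months, 2 from white and 3 from grey matter, from pools of 3 or 4. One of the WT white matter samples carried the genotype label ApoeKO against its title. Cells of the aged data carry 1 of 5 barcode endings, and the ApoeKO cells used here 1 of 2 prefixes, L7 or L8. No label ties an ending or a prefix to a sample, so the libraries below are named by them, each data set counts as 1 sample, and no test between tissues or genotypes was made on droplet cells. Intervals are 95% exact binomial for shares and exact Poisson for levels in UMIs per 1000000 (CPM), and they cover counting error only. Apoe was at 17.7 CPM in prefix L7 and at 6200 CPM in prefix L8, so L8 goes against the genotype label. Below, ApoeKO names the droplet data set and gives no genotype for the cells of L8. The dissociation buffer held 45 uM of the transcription blocker actinomycin D for either tissue, and the droplet protocol named no sort.

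The plate (Smart-seq2) cells were sorted as positive for CD45 and CD11b, a gate that T cells mostly lie outside of. They came from Trem2ko animals of 18 to 28 months (297 white and 267 grey matter cells), WT C57BL/6J animals of 18 to 19 months (136 white and 147 grey matter cells), 5xFAD animals of 5 to 7 months (75 cells), a transgenic amyloid line, and their WT controls of 6 to 7 months (41 cells), the last 2 from prefrontal cortex. Each is 1 cell of a named animal, and the animal is the replicate. A further 75 cells came from prefrontal cortex of C57BL/6J CX3CR1-GFP mice at postnatal day 14. Their titles name actinomycin and wild type. P2ry12 and Tmem119, which define microglia, had reads in every cell of the aged and 5xFAD sets, whereas Cd3d and Cd3g had reads in at most 1 cell of any aged group, so hardly any T cell was among the aged plate cells. Among animals with at least 5 cells, Trem2 was at 274 to 2032 CPM in white matter of Trem2ko animals and at 1794 to 3970 CPM in that of WT animals. The highest Trem2ko value, that of A12, lies inside the WT range of white matter and goes against its label there. In grey matter A12 was again the highest Trem2ko animal, at 1453 CPM, but below the WT range of 2137 to 5205 CPM.

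In the GRCm38 build, all 8 genes are annotated as protein coding. Gzma lies on chr13:113093825-113100981 and Gzmk on chr13:113171608-113225908, both on the minus strand and near each other, and the gene Esm1 lies within the annotated span of Gzmk. Gzmb is on chr14:56258838-56262260 (minus), Prf1 on chr10:61297833-61304680 (plus) and Nkg7 on chr7:43437073-43438249 (plus). Ifng is on chr10:118441046-118445892 (plus), where the unnamed model Gm49751 overlaps it, Ccl5 on chr11:83525778-83530518 (minus) and Pdcd1 on chr1:94038305-94052553 (minus).

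The RefSeq promoter table (GRCm38.p6) matched 7 of the 8 genes. The 250 bases before the start are shown for Nkg7, in the most T cells of the 8, for Gzmk, the granzyme found in the most T cells, and for Pdcd1, which was also found in microglia. Capitals mark exact matches, on either strand, to TGTGGT (a RUNX motif) or TCACACC (a T-box motif). RUNX and T-box factors are known regulators of cytotoxic genes, and the matches describe these letters and no binding.
Nkg7: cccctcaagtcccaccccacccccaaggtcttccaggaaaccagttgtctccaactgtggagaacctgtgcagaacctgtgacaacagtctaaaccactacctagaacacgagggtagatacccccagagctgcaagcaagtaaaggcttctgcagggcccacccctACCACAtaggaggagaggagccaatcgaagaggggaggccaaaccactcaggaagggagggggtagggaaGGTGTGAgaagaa
Gzmk: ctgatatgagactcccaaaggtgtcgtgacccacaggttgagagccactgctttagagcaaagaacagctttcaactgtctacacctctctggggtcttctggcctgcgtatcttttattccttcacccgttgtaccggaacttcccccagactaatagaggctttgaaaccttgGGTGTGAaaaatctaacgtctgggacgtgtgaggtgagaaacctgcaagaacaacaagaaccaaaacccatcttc
Pdcd1: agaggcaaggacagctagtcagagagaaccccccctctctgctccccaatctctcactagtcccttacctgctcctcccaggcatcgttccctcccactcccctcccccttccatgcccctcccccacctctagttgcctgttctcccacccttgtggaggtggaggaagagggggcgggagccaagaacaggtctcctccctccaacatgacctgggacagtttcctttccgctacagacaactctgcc
Each window ends at the start given by RefSeq, which lies 44943 bases inside the GENCODE span above for Gzmk and 65 bases inside it for Nkg7, so the Gzmk window and the T-box match of Nkg7 fall within those spans. The windows are chr7:43436888-43437137 (plus strand) for Nkg7, chr13:113180966-113181215 (minus) for Gzmk and chr1:94052554-94052803 (minus) for Pdcd1. Nkg7 held 1 RUNX match, 83 bases before the start, and 1 T-box match, 13 bases before it, whereas Gzmk held 1 T-box match, 75 bases before it, and Pdcd1 held none of either. Over all 32851 promoter windows of this length, 14.0% held the RUNX motif and 3.33% the T-box motif. The 2 motifs did not overlap in these windows.

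T cells of the aged data carried all 8 genes at higher levels than the other cells. In the pooled cells Nkg7 had a UMI in 92.0% of T cells and 1.23% of other cells, and Ccl5 in 91.1% and 6.51%. The share of T cells with a UMI was lower for the rest, in the order Gzmk (66.0%), Gzmb (35.5%), Prf1 (33.2%), Pdcd1 (24.9%), Ifng (16.6%) and Gzma (3.63%). Genes with a higher level in T cells made up 27.3% of the 15536 genes with at least 100 UMIs, and 12.3% were higher in every ending. Of the 8, 7 were higher in T cells in 5 of 5 endings with intervals that did not overlap, as did 5.14% of all genes, and Gzma was higher in 4 of 5. Among ApoeKO cells, where 32% of 10983 genes were higher in T cells and 24.5% in both prefixes, 7 of the 8 were higher in both prefixes, with intervals apart as for 9.86% of the genes, and Gzma in L7 and not in L8. Ifng, with 78 UMIs, is not among the 10983 genes, which had at least 100. ApoeKO ratios for 7 of the 8, all but Ifng, moved by over 1.5 times without either prefix: Ccl5 was 115-fold higher in T cells in all, 66.7-fold in L8 alone and 398-fold in L7 alone. T cells had a median of 6655 UMIs and other cells 7167 in the aged data, and 4331 and 3440 in the ApoeKO data. With every aged cell thinned to 1000 UMIs, which left out 1 T cell and 864 other cells, the shares were 84.5% of T cells and 1.43% of other cells for Ccl5, 69.5% and 0.376% for Nkg7 and 22.1% and 0.0313% for Gzmk. The thinned T cell shares of the other 5 genes lay between 1.35% (Gzma) and 13.4% (Gzmb), all above those of the other cells. UMIs here count 3' ends, so levels of different genes do not grow with gene length.

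**Figure D1:**
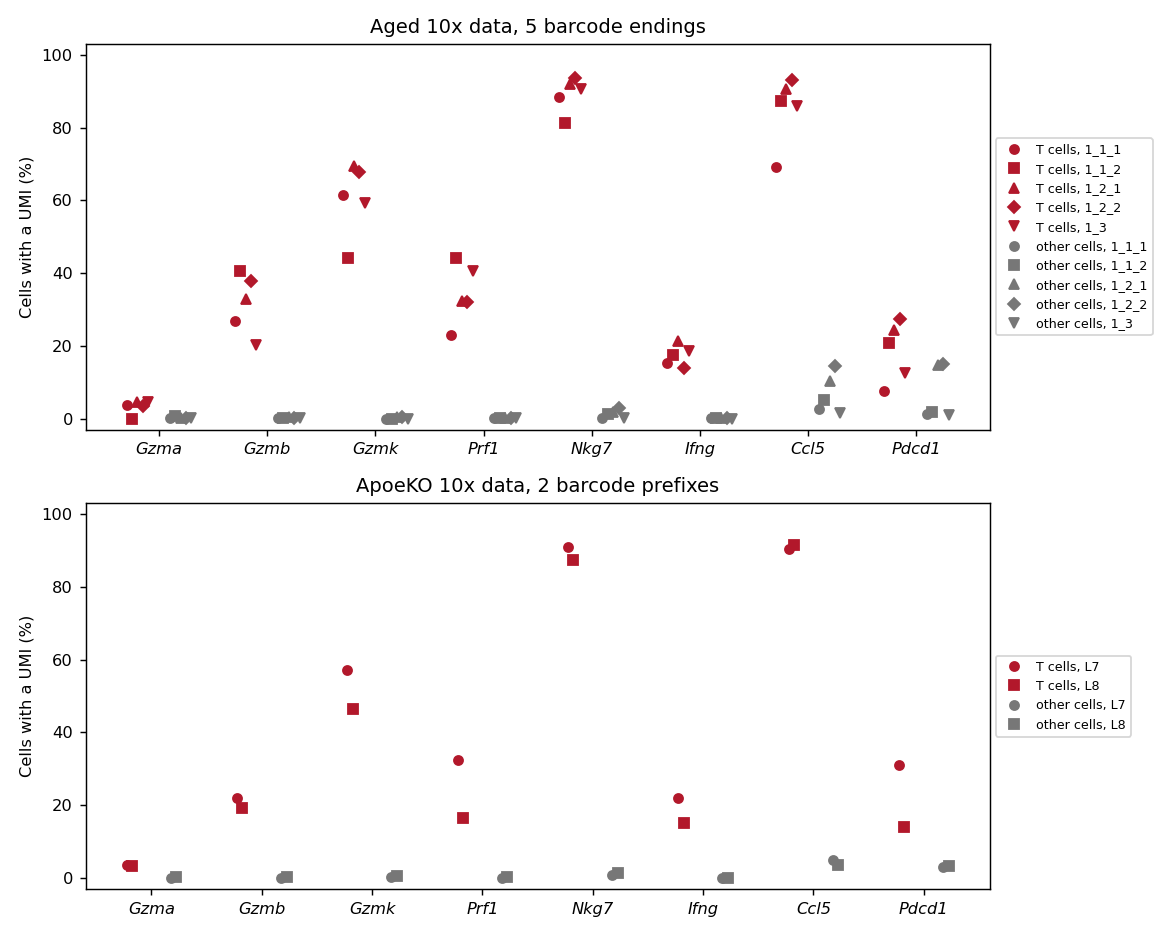
Percent of cells with a UMI of each gene (y axis) in T cells (red) and other cells (grey), 1 symbol per barcode ending or prefix; no error bars are drawn. Nkg7 and Ccl5 were found in over 69% of T cells in every library, and only Pdcd1 and Ccl5 passed 10% of other cells in any library.

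T cells were 1.05% of cells (95% interval 0.690 to 1.54%) in ending 1_1_1, 1.96% (1.57 to 2.41%) in 1_1_2, 8.16% (7.34 to 9.04%) in 1_2_1, 15.4% (14.3 to 16.5%) in 1_2_2 and 1.09% (0.844 to 1.40%) in 1_3. Among ApoeKO cells they were 13.4% (11.4 to 15.5%) in L7 and 9.18% (7.83 to 10.7%) in L8. The endings thus fall into 3 with at most 1.96% T cells and 2 with at least 8.16%, which hold 335 (1_2_1) and 674 (1_2_2) of the 1185 T cells. Without 1_2_2 the aged share was 3.04% in place of 5.59%. Of the T cells, 28.6% also met the marker gate of another cell type, most often microglia (179 cells) or astrocytes (135 cells). That share was 53.8% in 1_1_1, 53.5% in 1_1_2, 30.7% in 1_2_1, 21.1% in 1_2_2 and 53.1% in 1_3, with 1_1_1, 1_1_2 and 1_3 above 50%. No doublet caller was run, and the part of mixed droplets or free RNA in those cells was not tested.

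Among the granule proteases, Gzmk was the one found in the most T cells. Gzmk had a UMI in 61.5% of T cells and 0 of 2440 other cells in ending 1_1_1, 44.2% and 0 of 4309 in 1_1_2, 69.6% and 0.398% in 1_2_1, 67.8% and 0.539% in 1_2_2, and 59.4% and 0 of 5781 in 1_3. The counts of 0 allow shares of up to 0.123%, 0.0696% and 0.0519% of other cells in 1_1_1, 1_1_2 and 1_3. Every library had it in far more T cells than other cells, with 1_1_2 the lowest. Its pooled level was 221 CPM (212 to 231) in T cells and 0.218 CPM (0.152 to 0.304) in other cells, 1014-fold higher from 35 UMIs in other cells, the seventh highest ratio of the genes compared. Without ending 1_2_2 it was 1737-fold. With ApoeKO cells it was in 57.2% of T cells and 0.319% of other cells with prefix L7, and in 46.4% and 0.469% with prefix L8.

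Gzmb, the granzyme that triggers target cell death, was found in fewer T cells than Gzmk but at more UMIs per cell that held it, 4.11 against 2.81. It had a UMI in 26.9% of T cells and 0.0820% of other cells in ending 1_1_1, 40.7% and 0.325% in 1_1_2, 32.8% and 0.478% in 1_2_1, 38.0% and 0.269% in 1_2_2, and 20.3% and 0.104% in 1_3. Its pooled level was 175 CPM (166 to 183) in T cells and 1.65 CPM (1.46 to 1.86) in other cells, 106-fold higher, or 162-fold without ending 1_1_2. ApoeKO shares were 22.1% of T cells and 0.106% of other cells in L7, and 19.2% and 0.402% in L8. The T cell shares of the 7 libraries all lay above those of the other cells, and endings 1_1_1 and 1_3 rest on 26 and 64 T cells.

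Gzma was the exception among the granzymes. It had a UMI in 43 of the 1185 aged T cells, and in 0 of 86 T cells of ending 1_1_2, which allows a share of up to 3.49%. The level was 4.48 CPM in T cells and 2.04 CPM in other cells of ending 1_1_1, 29.9 and 5.31 CPM in 1_2_1, 46.1 and 11.5 CPM in 1_2_2, and 8.89 and 5.33 CPM in 1_3, with intervals apart in 2 of 5 endings. In 1_1_2 other cells held 34.6 CPM. In ApoeKO cells Gzma was at 76.9 CPM in T cells and 0.167 CPM in other cells of L7, where 64 UMIs came from 5 T cells, and at 10.0 and 14.3 CPM in L8, where the direction turned. By share of cells L8 did not turn, with Gzma in 3.31% (1.08 to 7.56%) of T cells and 0.268% (0.0730 to 0.684%) of other cells. The pooled aged level was 33.5 CPM in T cells and 11.6 CPM in other cells, 2.88-fold higher. This was 1.66-fold without ending 1_2_2 and 5.90-fold without 1_1_2.

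Prf1, which encodes perforin, had a UMI in 23.1% of T cells and 0.205% of other cells in ending 1_1_1, 44.2% and 0.255% in 1_1_2, 32.2% and 0.212% in 1_2_1, 32.0% and 0.242% in 1_2_2, and 40.6% and 0.138% in 1_3. Its pooled level was 59.8 CPM (55.1 to 64.8) in T cells and 1.20 CPM (1.03 to 1.38) in other cells, 49.9-fold higher. The ApoeKO prefixes differed, with 32.4% of T cells and 0.106% of other cells in L7 and 16.6% and 0.402% in L8. Nkg7, a membrane protein of cytotoxic granules, was nearly uniform by contrast. It was found in 81.4 to 93.6% of T cells and 0.259 to 2.83% of other cells over the 5 endings, and in 91.0% and 0.851% in L7 and 87.4% and 1.41% in L8. Its pooled level was 1365 CPM (1342 to 1389) in T cells and 5.92 CPM (5.55 to 6.31) in other cells.

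The secreted factors lay at opposite ends. Ccl5, a chemokine that attracts lymphocytes and monocytes, reached the highest level of the 8, 5693 CPM (5646 to 5740) in aged T cells against 40.1 CPM (39.2 to 41.1) in other cells, and 52.3 UMIs per T cell that held it. Over endings it ran from 4751 to 6522 CPM in T cells and from 17.3 to 51.6 CPM in other cells, and in the ApoeKO data it was at 7492 CPM in T cells and 18.8 CPM in other cells of L7, and at 7295 and 109 CPM in L8. Ifng, the macrophage-activating cytokine, had a UMI in 15.4% of T cells and 0.205% of other cells in ending 1_1_1, 17.4% and 0.162% in 1_1_2, 21.5% and 0.186% in 1_2_1, 13.9% and 0.108% in 1_2_2, and 18.8% and 0.0346% in 1_3. The T cell share of Ifng was highest in 1_2_1, at 21.5% (17.2 to 26.3%), and lowest in 1_2_2, at 13.9% (11.4 to 16.8%). Those of the other 3 endings lay between. These endings were picked as the extremes, the intervals cover counting error only, and a difference between endings was not tested. Its pooled level was 27.1 CPM (24.0 to 30.6) in T cells and 0.218 CPM (0.152 to 0.304) in other cells. ApoeKO values were 22.1% of T cells and 0.106% of other cells in L7, and 15.2% and 0.134% in L8.

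Pdcd1, which encodes PD-1, was also found outside T cells. It had a UMI in 7.69% of T cells and 1.27% of other cells in ending 1_1_1, 20.9% and 1.95% in 1_1_2, 24.5% and 14.8% in 1_2_1, 27.4% and 15.0% in 1_2_2, and 12.5% and 0.934% in 1_3. In both kinds of cell the endings 1_2_1 and 1_2_2, those with the most T cells, were the highest. Its pooled level was 57.7 CPM (53.0 to 62.6) in T cells and 12.0 CPM (11.4 to 12.5) in other cells, 4.81-fold higher. The ApoeKO shares were 31.0% of T cells and 2.98% of other cells in L7, and 13.9% and 3.21% in L8.

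To place the UMIs outside T cells, each cell was assigned to 1 of 15 gates when it had UMIs in 2 or more markers of that gate alone. Of all Gzma UMIs in the aged data, 15.1% lay in T cells and 74.0% in the 29 cells of the natural killer gate. Of the Gzmk UMIs 98.4% lay in T cells, and 93.5% of those of Nkg7, 89.8% of Ccl5, 88.5% of Ifng, 86.7% of Gzmb and 75.5% of Prf1 did. Of the Pdcd1 UMIs, 23.0% lay in T cells and 61.1% in the microglia gate. For ApoeKO cells 51.5% of Pdcd1 UMIs lay in T cells and 42.6% in the microglia gate. The order turned between the prefixes, with 67.2% and 30.3% in L7 and 28.9% and 60.2% in L8.

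Natural killer cells, which kill without a rearranged receptor, carried most of the 8 genes as well. Of the 29 aged cells of this gate, 100% had a UMI of Nkg7, 96.6% of Ccl5, 69.0% of Prf1, 65.5% of Gzmb, 51.7% of Gzma, 41.4% of Ifng and 10.3% of Pdcd1, while Gzmk was found in 0 of 29 cells, which allows a share of up to 10.3%. The Gzma level was 8296 CPM in these cells and 42.6 CPM in cells of the T cell gate alone. In the T cell gate alone, Gzmk was in 68.3% of cells. In the pooled aged cells Gzma and Gzmk, neighbours on chromosome 13, thus had opposite distributions over the 2 lymphocyte gates. The libraries differed in this. In L7 98.5% of the Gzma UMIs lay in T cells, and in L8 92.6% lay in the natural killer gate. In ending 1_1_1 none lay in that gate and 95% in cells of more than 1 gate. Of the Gzmk UMIs of L8, 3.52% lay in the natural killer gate. Of the 20012 other aged cells, 29 held 4 or more of the 8 genes, and 20 of those lay in the natural killer gate.

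**Figure D2:**
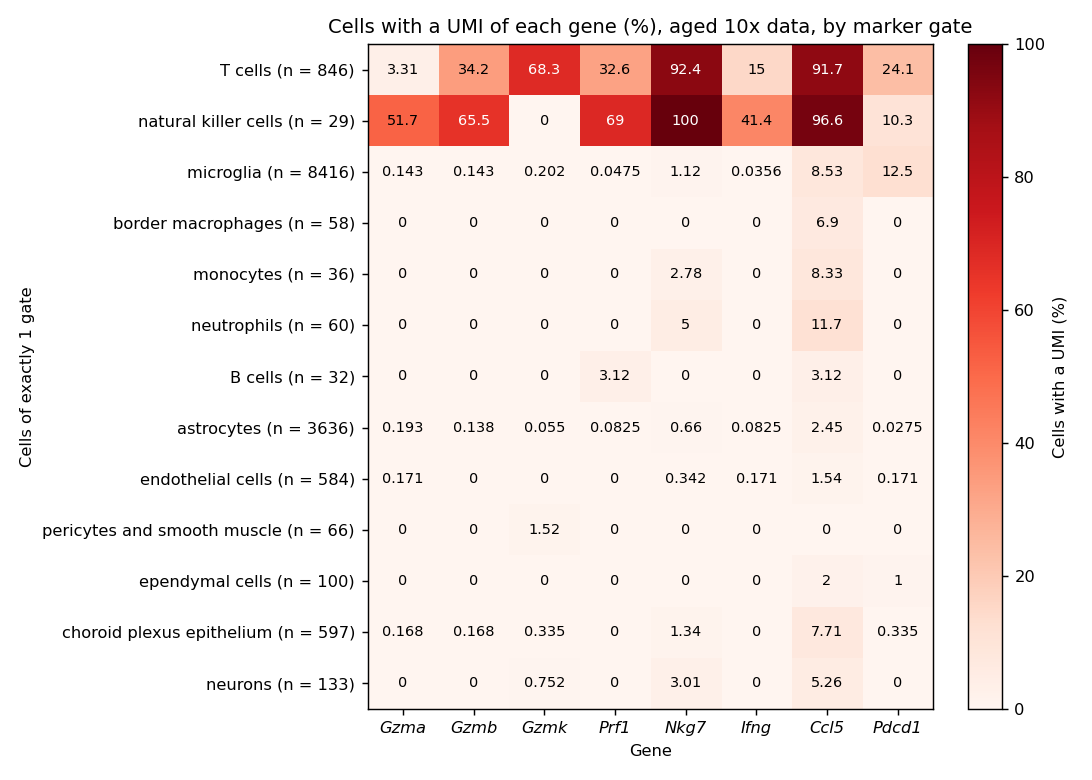
Percent of cells with a UMI of each gene in the aged droplet data, for cells that met exactly 1 marker gate; rows are gates with their number of cells, and colour and printed values give the percent. Oligodendrocytes and their progenitors had under 10 cells and are not drawn. Gzmk was found in 68.3% of T cells and none of the natural killer cells, and Pdcd1 in 12.5% of microglia.

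In the microglia gate (8416 aged cells), Pdcd1 had a UMI in 12.5% (11.8 to 13.2%) at a median of 7467 UMIs per cell, against 0.0275% of 3636 astrocytes at a median of 5268 and 0.171% of 584 endothelial cells at 4330. By ending, Pdcd1 was in 2.34% of microglia in 1_1_1, 2.83% in 1_1_2, 22.0% in 1_2_1, 24.5% in 1_2_2 and 1.87% in 1_3. In astrocytes it was in 0.455% in 1_2_1 and in none of the cells of the other 4 endings. The same 2 endings that held most T cells therefore had Pdcd1 in over 20% of microglia, and the other 3 in under 3%. Thinned to 1000 UMIs per cell, the microglial shares were 0.50%, 0.528%, 3.13%, 3.48% and 0.315% in the same order of endings, with 1_2_1 and 1_2_2 again highest. Microglia of the ApoeKO data had Pdcd1 in 8.39% of cells in L7 and 5.96% in L8, and it was in 0 of 86 astrocytes of L7 and 0 of 153 of L8, which allows shares of up to 3.49% and 1.96%.

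Ccl5 behaved otherwise, since it was also found in astrocytes of every ending. It was in 2.22% of microglia and 1.89% of astrocytes in 1_1_1, 5.13% and 2.98% in 1_1_2, 11.7% and 4.55% in 1_2_1, 16.5% and 9.39% in 1_2_2, and 1.93% and 0.811% in 1_3. Both cell types had their highest shares in the endings with the most T cells. By share of cells, microglia stood above astrocytes in each ending. Median depths were 8066 UMIs in microglia against 1704 in astrocytes in 1_2_2, and 7607 against 6984 in 1_1_1. By UMIs the order turned in 1_3, where 16.7% of the Ccl5 UMIs lay in the astrocyte gate and 3.14% in the microglia gate. In each other ending the microglia gate held more of them. The part of free RNA was not tested. The 5 members other than Pdcd1, Ccl5 and Nkg7 were in at most 0.202% of aged microglia.

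**Figure D3:**
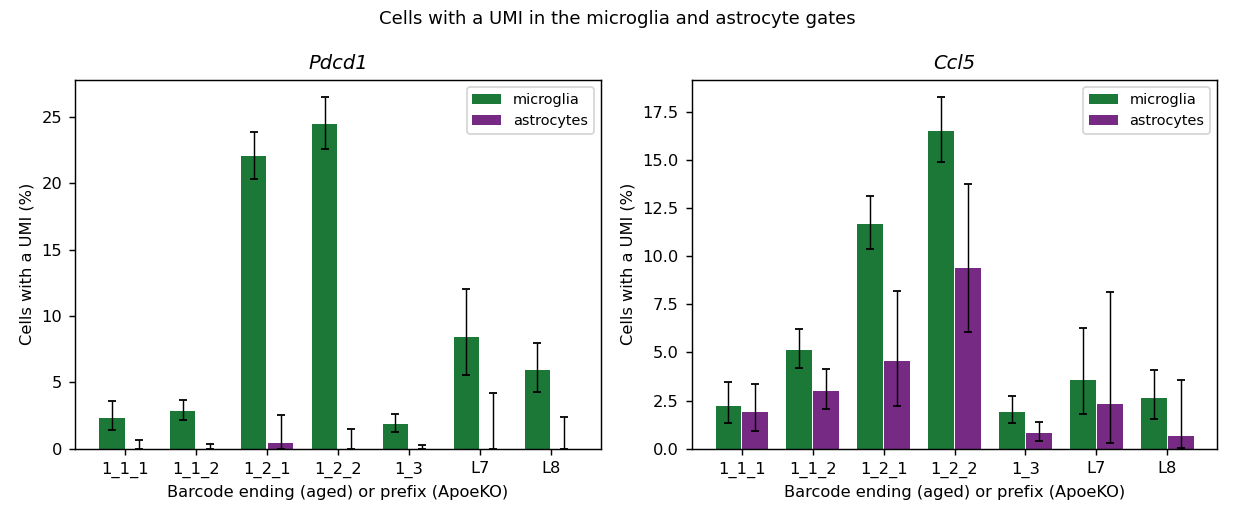
Percent of cells with a UMI of Pdcd1 (left) and Ccl5 (right) in the microglia gate (green) and the astrocyte gate (purple) by barcode ending (aged) or prefix (ApoeKO), with 95% exact binomial intervals. Pdcd1 reached 22.0 and 24.5% of microglia in 1_2_1 and 1_2_2 and at most 0.455% of astrocytes, whereas Ccl5 had its highest share in 1_2_2 in both cell types.

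T cells were split by their coreceptor genes, Cd8a and Cd8b1 of the cytotoxic lineage and Cd4 of the helper lineage. Of the 1185 aged T cells, 916 (77.3%) had a UMI of Cd8a or Cd8b1 and none of Cd4, 99 (8.35%) had Cd4 alone, 21 both and 149 none. CD8 cells had higher shares than CD4 cells for Gzmb (41.7%, 38.5 to 45.0%, against 11.1%, 5.68 to 19.0%), Prf1 (39.0%, 35.8 to 42.2%, against 9.09%, 4.24 to 16.6%) and Gzmk (76.3%, 73.4 to 79.0%, against 42.4%, 32.5 to 52.8%). Nkg7 was in 99.5% of CD8 and 71.7% of CD4 cells, and Ccl5 in 99.2% and 68.7%. For these 5 genes the intervals did not overlap, as was the case, with CD8 cells higher, for 1.11% of the 15536 genes. The intervals of the shares overlapped for Ifng (17.6% of CD8 and 14.1% of CD4 cells), Pdcd1 (27.2% and 19.2%) and Gzma (4.15% and 1.01%). By level, those of Gzma were apart, at 40.2 CPM (35.9 to 44.9) in CD8 cells and 1.26 CPM (0.0319 to 7.01) in CD4 cells, from 317 UMIs in CD8 and 1 UMI in CD4 cells. An aged T cell with Gzma held 7.72 of its UMIs on average. UMIs of the same cell are not independent, so these level intervals are too narrow. The 1.11% of all genes is for shares of cells and not for levels. Median depths were 6816 UMIs in CD8 and 6338 in CD4 cells.

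Among ApoeKO T cells, 229 of 296 T cells (77.4%) were CD8 and 23 were CD4. Gzmk was in 61.6% (54.9 to 67.9%) of CD8 and 30.4% (13.2 to 52.9%) of CD4 cells, and Nkg7 in 98.3% (95.6 to 99.5%) and 65.2% (42.7 to 83.6%). Ifng was in 19.2% (14.3 to 24.9%) of CD8 and 30.4% (13.2 to 52.9%) of CD4 cells, with overlapping intervals. With 23 CD4 cells, Gzmk, Nkg7 and Ccl5 of the 8 had intervals apart, against 0.537% of the 10983 genes.

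**Figure D4:**
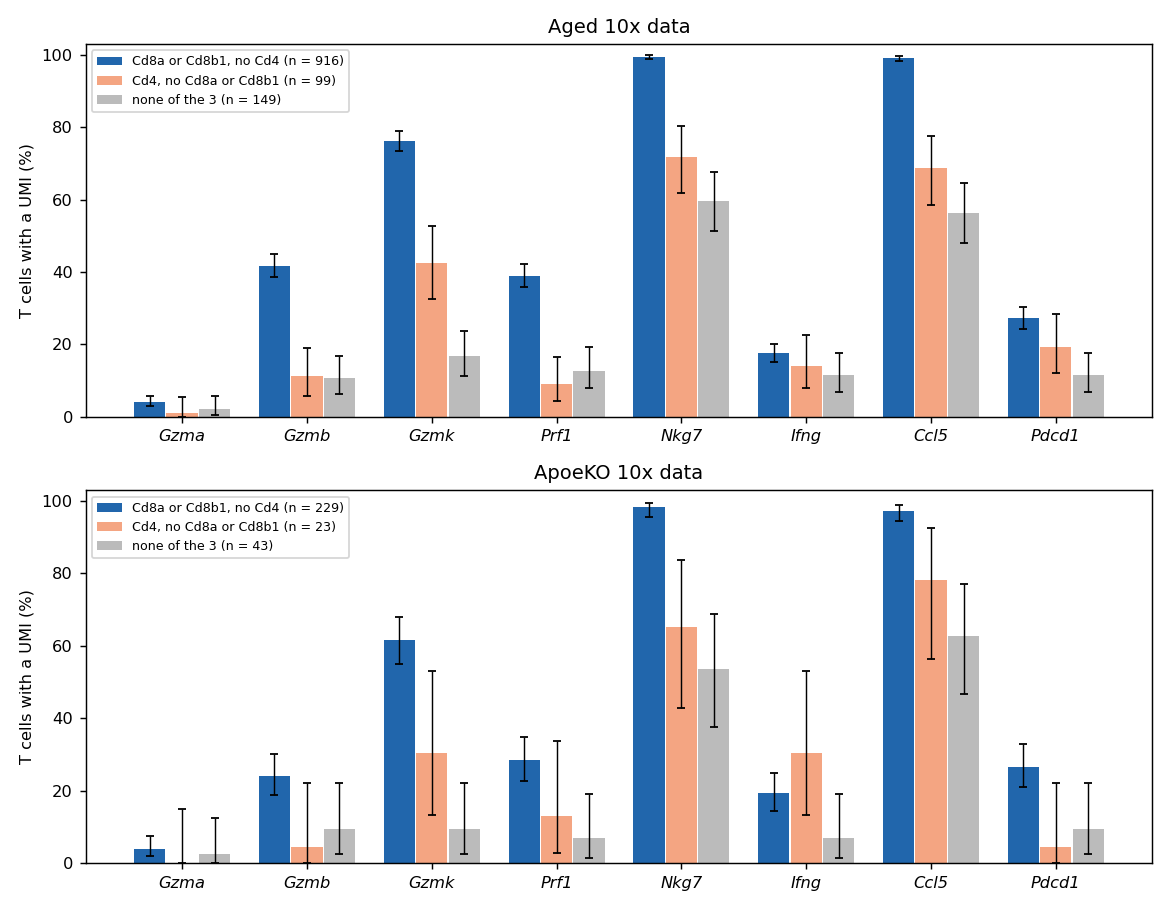
Percent of T cells with a UMI of each gene by coreceptor, aged (top) and ApoeKO (bottom), with 95% exact binomial intervals; n is the number of T cells. Gzmb, Prf1, Gzmk, Nkg7 and Ccl5 stand higher in CD8 than in CD4 cells of the aged data, with intervals apart.

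Single T cells combined the genes. The median number of the 8 genes found was 4 in aged T cells and 0 in other cells, and 3 and 0 in the ApoeKO data, and 59 aged T cells (4.98%) held none. Of the 43 Gzma T cells, 90.7% (77.9 to 97.4%) also held Gzmk, against 65.1% (62.2 to 67.8%) of those without Gzma, and 72.1% (56.3 to 84.7%) held Gzmb, against 34.2% (31.4 to 37.0%). Both kinds had like depth, at medians of 6498 and 6658 UMIs. Pdcd1 went with Gzmk, found in 80.3% (75.3 to 84.7%) of T cells with Pdcd1 and 61.2% (57.9 to 64.5%) of those without, and not with Gzmb, found in 35.6% (30.1 to 41.3%) and 35.5% (32.4 to 38.7%). T cells with Pdcd1 were deeper, at a median of 7354 UMIs against 6441. These shares pool the barcode endings, and both Pdcd1 and Gzmk had their highest T cell shares in 1_2_1 and 1_2_2. The part of the endings in this pairing was not tested. In the ApoeKO data Gzmk was in 63.6% (50.9 to 75.1%) of T cells with Pdcd1 and 48.3% (41.6 to 54.9%) of those without, with overlapping intervals.

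Other genes of the cytotoxic programme were counted by list. Of all genes with at least 100 UMIs, 27.3% were higher in the pooled T cells and 12.3% in every ending. The listed genes had no such limit on UMIs. Of the killing machinery 11 of 13 were higher in the pooled T cells and 6 in every ending. Ctsw, a cathepsin of cytotoxic cells, was in 84.9% of T cells and 0.830% of other cells, and Srgn, the granule proteoglycan, in 94.3% and 55.3%, while the lysosomal Lamp1, in 59.7% and 87.1%, was lower in T cells. All 6 natural killer receptors, of which Klre1 is also a marker of the natural killer gate, were higher in every ending, led by Klrd1 (49.8% of T cells and 1.78% of other cells), Klrk1 and Klrc1. Of 8 effector transcription factors 7 were higher, 6 of them in every ending, and Runx3, a regulator of the CD8 lineage, was in 81.1% of T cells and 1.34% of other cells. Among cytokines and chemokines 5 of the 6 measured were higher, 3 of them in every ending, led by Xcl1 (62.2% and 0.340%), and Ccl3, at 68.2 CPM in T cells and 97.6 CPM in other cells, was lower.

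All 6 genes of tissue residency were higher in the pooled T cells and 4 in every ending, with the chemokine receptor Cxcr6 in 86.2% of T cells and 0.485% of other cells, Rgs1 in 64.4% and 7.05% and the early activation marker Cd69 in 58.6% and 0.954%. Of 7 genes of naive or recirculating T cells 5 were higher, 4 of them in every ending, led by Il7r (73.2% and 10.6%) and Tcf7 (43.2% and 3.97%). Of 7 checkpoint genes 4 were higher in the pooled T cells and 1 in every ending, against 27.3% and 12.3% of all genes. Tox, which shapes exhausted T cells, was in 42.4% of T cells and 6.97% of other cells, whereas Lag3 and Entpd1, in 15.5% and 25.5% of T cells against 43.9% and 51.6% of other cells, were lower. In the ApoeKO data the counts were 10 of 13 for killing, 6 of 6 for natural killer receptors, 7 of 8 for transcription factors, 3 of 6 for cytokines, 6 of 6 for residency, 6 of 7 for naive genes and 4 of 7 for checkpoints, against 32% of all genes.

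Across the 10 gates of at least 50 aged cells, which leave out natural killer cells, the genes whose levels ran most like each member were found by Pearson's r of log2(CPM + 1), with no test since the gates share libraries. Gzmk ran with Cd3g (r = 0.992), Icos (0.957) and Cd40lg (0.944), and Nkg7 with Lck (0.993), Skap1 (0.988) and Cd3d (0.986). Cd3g and Cd3d help define the T cell gate itself, so their places follow in part from that rule. Gzmb ran with Il2rb, Gimap7 and Trgv2, and Prf1 with Lax1, Ubash3a and Klrc1, all at r near 1.00. Gzma ran with Sla2, P2ry10 and Cd2 and Ifng with Tnfrsf9, Ubash3a and Gm30211, likewise near 1.00. Genes high in the T cell gate alone reach r near 1.00 with each other, so these partners show no closer tie. The natural killer gate, left out here, held 74.0% of the Gzma UMIs. Pdcd1 and Ccl5 had weaker partners, Pdcd1 with Il12rb2 (0.934), Ildr1 (0.929) and Klk8 (0.922) and Ccl5 with S100a4 (0.924), Tpsb2 (0.911) and Tnnt3 (0.906).

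In the plate data of aged animals 3 of the 8 genes were listed, Pdcd1, Ccl5 and Nkg7, and in the 5xFAD data Pdcd1 and Ccl5. Pdcd1 was found in more white than grey matter microglia of WT animals. It had reads in 30.0% of white matter cells of A2, 11.8% of A3, 29.5% of A4, 37.5% of A5, 35.7% of A6 and 31.4% of A7, and in 7.69% of grey matter cells of A2, 0% of A3, 7.14% of A4, 16.1% of A5, 0% of A6 and 15.8% of A7. White matter was higher in 6 of 6 animals, at 29.3 ± 9.18% against 7.79 ± 7.15% (SD, n = 6 pairs). The exact paired sign-flip permutation test over animals, added after the values were seen, gave a two-sided p = 0.031, the smallest that 6 pairs allow. Adjusted over the 10 such tests made (2 genes, 5 comparisons), this exact test had p = 0.31.

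By level, Pdcd1 was at 115, 55.2, 97.7, 83.0, 386 and 118 CPM in white matter of A2 to A7, and at 0.849, 0, 59.3, 116, 0 and 2.39 CPM in their grey matter. White matter was higher in 5 of 6 pairs, and 1 cell held 98.1% of the white matter Pdcd1 reads of A2 and another 99.2% of the grey matter reads of A4. The log2 fold change was 5.21 ± 1.79 (SE), with p = 0.0097 and adjusted p = 0.79 by edgeR's quasi-likelihood test over 11410 genes, of which 0.0351% (4 genes) passed the threshold. No member passed with edgeR, whereas DESeq2 gave Pdcd1 a log2 fold change of 5.53 and adjusted p = 1.4e-04 among its 292 calls. On simulated data of this design, DESeq2 made 189 false calls and edgeR 0, and edgeR found 2.04% of genes changed 8-fold and 59.6% of those changed 64-fold. The simulated counts had 1 dispersion for all genes, no animal effect and no reads concentrated in 1 cell. They therefore do not settle whether the DESeq2 call of Pdcd1 is false.

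**Figure D5:**
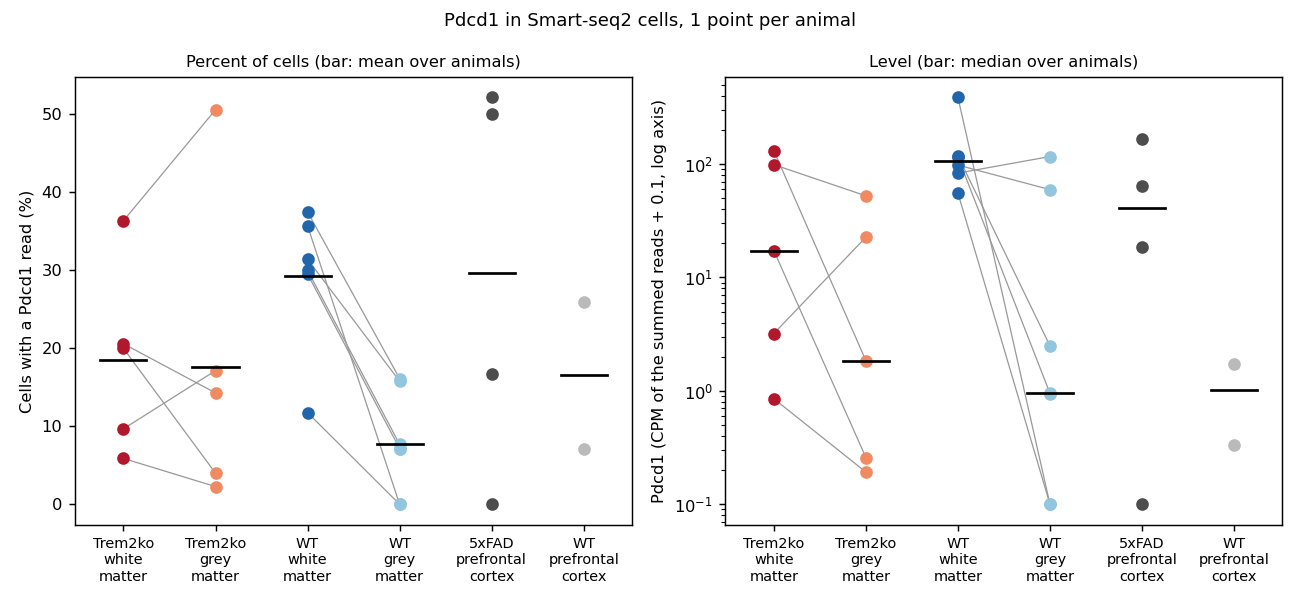
Pdcd1 in single microglia by plate sequencing, 1 point per animal with at least 5 cells; left, percent of cells with a read (bar, mean); right, level in CPM + 0.1 on a log axis (bar, median). Grey lines join white and grey matter of 1 animal. WT white matter lies at 11.8 to 37.5% of cells and WT grey matter at 0 to 16.1%.

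In Trem2ko animals the tissues overlapped. Pdcd1 had reads in 20.6% of white matter cells of A8, 9.68% of A9, 5.88% of A10, 20.0% of A11 and 36.4% of A12, and in 14.3%, 17.1%, 2.27%, 4.00% and 50.6% of grey matter cells of the same animals. White matter was higher in 3 of 5 animals, at 18.5 ± 11.9% against 17.7 ± 19.5% (SD, n = 5 pairs), with an exact permutation p = 0.88 where 5 pairs cannot go below 0.0625. The fitted log2 fold change between tissues was 2.92 ± 1.77 (edgeR, adjusted p = 1.0, 0% of genes called), and the difference of the tissue effects, Trem2ko minus WT, was -2.29 ± 2.55 (adjusted p = 1.0). In edgeR 323 genes had an unadjusted p under 0.05 between the Trem2ko tissues and 286 for the difference. DESeq2 called 71 and 29 genes there, none of them a member.

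Between genotypes, Pdcd1 was in 18.5 ± 11.9% (SD, n = 5) of white matter cells of Trem2ko animals and 29.3 ± 9.18% (n = 6) of WT animals, with an exact permutation p = 0.12 and an adjusted p = 0.44 over the 10 tests. With each animal left out in turn, this exact permutation p, unadjusted, ran from 0.029 to 0.24. It was 0.029 without A12, whose white matter Trem2 goes against its label, and 0.040 without A3. A12 had the highest Trem2ko share and A3 the lowest WT share, so leaving out either widens the difference. Neither value was adjusted for the number of fits. The log2 fold change was -1.60 ± 0.95 (edgeR, adjusted p = 1.0 over 8415 genes, 0% called, 282 with an unadjusted p under 0.05), and DESeq2 called 14 genes, Pdcd1 not among them. In grey matter Pdcd1 was in 17.7 ± 19.5% of Trem2ko cells (n = 5) and 7.70 ± 6.53% of WT cells (n = 7), with an exact permutation p = 0.24. The A12 animal alone held 50.6%, and without it the difference of means was 1.73 percentage points in place of 9.96. The edgeR fit of grey matter called 0.0121% of 8269 genes and held no member. Pdcd1 and Ccl5, the only members kept for the fits of aged animals, did not pass its filter on low counts. Median reads per cell ran from 75453 to 561948 in Trem2ko white matter and from 61876 to 129690 in WT white matter. Their part in the shares of cells was not tested.

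In prefrontal cortex, Pdcd1 had reads in 0% of cells of A91, 16.7% of A93, 52.2% of A99 and 50.0% of A100 (5xFAD), and in 7.14% of A132 and 25.9% of A173 (WT). The groups overlapped. Levels were 0, 18.6, 167 and 63.5 CPM in the 5xFAD animals and 0.237 and 1.62 CPM in the WT animals, and 1 cell held 88.1% of the reads of A99. The log2 fold change was 6.30 ± 2.63 (edgeR, p = 0.035, adjusted p = 1.0 over 9668 genes, 0% called and 315 with an unadjusted p under 0.05). DESeq2 gave 6.35 with adjusted p = 0.030 among 154 calls, and made 193 false calls on simulated data of this design, where edgeR found none of the genes changed 8-fold or 64-fold. The exact permutation test of the share of cells gave p = 0.60, where this design cannot go below 0.067.

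Ccl5 was in few microglia of most plate animals, with its highest share, 36.4%, in white matter of A12. In WT animals it had reads in 0, 0, 11.4, 6.25, 0 and 8.57% of white matter cells of A2 to A7, and in grey matter in 15.8% of cells of A3 and none of the other animals. In Trem2ko animals it was in 2.94% of white matter cells of A8, 12.6% of A11, 36.4% of A12 and none of A9 and A10, and in 2.27% of grey matter cells of A10, 20.0% of A11, 15.7% of A12 and none of A8 and A9. In prefrontal cortex it had reads in 8.70% of cells of A99 and none of the other 5xFAD animals, and in 14.3% of A132 and 3.70% of A173 (WT). The 5 exact permutation tests of its share of cells gave p between 0.13 and 0.75. Fitted log2 fold changes between tissues were 1.10 ± 2.87 in Trem2ko and 4.50 ± 4.07 in WT animals (edgeR, adjusted p = 1.0 and 0.99), and a single cell held 97.9% of the grey matter Ccl5 reads of A11. Nkg7 had reads in A11 and A12 alone, at most 1.32 CPM, and was left out of the fits because it was at 0 in every cell of 1 of the 2 parts of that table. Median reads per cell ran from 473084 to 563115 in A11 and A12 and from 75453 to 128112 in A8 to A10. The part of depth in the Ccl5 and Nkg7 shares was not tested.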

How the data were processed

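Brain cells of aged and ApoeKO mice were measured by 10x droplets and single microglia by Smart-seq2. The deposited counts are unnormalised, of UMIs for 10x barcodes and of reads for Smart-seq2 cells. The tools named in the submitters' processing notes are Cell Ranger 4, bcl2fastq, Trim Galore and FastQC, and the build is mm10. The sources used here name no aligner for the Smart-seq2 counts. Members and lists were chosen with earlier results of these data known. In the ApoeKO droplet data, the 2730 of 13954 columns with the prefix L7 or L8 were used. The other 11224 columns were not used, and no label ties the columns of either set to a sample. The 5 endings and 2 prefixes shared 58 barcodes in all between pairs of libraries, at most 11 between any pair.

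A gate needs UMIs in at least 2 of its markers, and 65 markers define the 15 gates. Cells in more than 1 gate were put in no class, except that T cells are all cells past the CD3 rule. Levels are UMIs per 1000000 of the summed cells, intervals are at the 95% level, and a count of 0 is given with the limit of 3 counts.

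Smart-seq2 reads were summed per animal and tissue with at least 5 cells, and 2 wells listed more than once in A5 were counted once (correlation 0.974 and 0.982, against at most 0.504 between other cells). Genes at 0 in all cells of 1 part of the aged table, 4826 of 18081, were left out. Libraries were compared with edgeR 4.0.16 (TMM, filterByExpr, robust quasi-likelihood, R 4.3.3) at a Benjamini-Hochberg adjusted p of 0.05, with the animal as a block between tissues and DESeq2 1.42.0 as an alternative. The SE is the absolute log2 fold change over the square root of F. Tissues of 1 animal were paired by the animal's name in the labels. Over 5575 genes, deviations from group means correlated by 0.013 to 0.12 between the tissues of an animal, over 0.1 in 1 of 11. Both tools were tested on simulated data with 200 changed genes, 1 dispersion for all genes and no animal effect, which is simpler than the measured data. Named genes outside the 8 are the 3 of each list in the most T cells and the 3 most alike in level, plus genes named as exceptions after their values were seen. Alternatives covered the CD3 rule, gates, depth, scaling, filters and each left-out library or animal.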

Additional observations from a re-analysis of the deposited data

Results flagged for a closer look

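Over 24 sets of values per animal, 11 held an animal set apart from the rest of its group by Dixon's test, where chance sets apart about 1 in 20. For Pdcd1 these were A6 in WT white matter, at 386 CPM, and A3 in WT white matter, at 11.8% of cells with reads. For Ccl5 they were A99 of the 5xFAD animals, at 0.222 CPM and 8.70% of cells, A11 in Trem2ko grey matter, at 20.2 CPM, A12 in Trem2ko white matter, at 42.8 CPM, A3 in WT grey matter, at 15.1 CPM and 15.8% of cells, and A4 in WT white matter, at 29.7 CPM. For Nkg7 it was A11 in Trem2ko grey matter, at 1.32 CPM and 10.7% of cells. In the Ccl5 and Nkg7 sets many of the other animals were at 0.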

How the results depend on the processing

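All 8 genes kept higher T cell levels in the aged data under each of the 10 alternatives, and in the ApoeKO data 7 to 8 did when a prefix was left out. T cells as a share of cells moved to 6.94% (aged) with 1 or more CD3 genes, to 5.27% (aged) and 9.05% (ApoeKO) with all 3, and to 6.12% and 13.8% with only cells of at least 2000 UMIs. Without an ending the aged share was 6.19% (1_1_1), 6.54% (1_1_2), 4.97% (1_2_1), 3.04% (1_2_2) and 7.30% (1_3), and without a prefix the ApoeKO share ran from 9.18 to 13.4%. DESeq2 called 1 member (Pdcd1) between WT tissues and 1 in 5xFAD, against 0 by edgeR, with 292 against 4 genes and 154 against 0 genes in all. It called 71 against 0 genes between Trem2ko tissues, 29 against 0 for their difference from WT, and 14 against 0 in white and 9 against 1 in grey matter between genotypes. Without a filter on low counts edgeR called 16 genes in 5xFAD, and with animals of any cell number 2 between WT tissues. Without the replicate block no member was called between tissues, Pdcd1 had log2 fold changes of 1.76 in Trem2ko and 2.31 in WT animals, and 10 genes were called in WT. With each animal left out, the log2 fold change of Ccl5 ran from -0.50 (without A12) to 2.80 between Trem2ko tissues and from -9.02 to 0.14 (without A4) for the difference of tissue effects. The difference in share of cells with Pdcd1 between Trem2ko tissues ran from -2.95 (without A11) to 4.61 percentage points, at -0.52 without A8. That of Ccl5 ran from -1.67 (without A12) to 5.34 between Trem2ko tissues, from -0.19 (without A4) to 5.24 between WT tissues, and from -0.47 (without A12) to 8.62 between genotypes in white matter. For these the cause was not tested. Pdcd1 between WT tissues kept its direction with each animal left out, from 4.21 to 6.38 (log2, edgeR) and from 18.7 to 23.5 percentage points of cells, where 5 pairs cannot pass the threshold. Thinning every cell to 1000 UMIs moved 89 of 128 droplet values for single genes beyond their intervals. The T cells of endings 1_1_1 (26) and 1_3 (64) limit their shares.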

Other observations

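Among the 75 cells from postnatal day 14, Gzma had 4 reads in 3 cells and Ccl5 had 5 reads in 5 cells. The median was 42361 reads per cell. The titles of these cells name actinomycin, and no animal is named for them. Trem2ko animal A13, with 4 white and 2 grey matter cells, and 5xFAD animal A187, with 3 cells, were too small for the comparisons, and Pdcd1 and Ccl5 were at 0 in both. Cells with UMIs in exactly 1 of the 3 CD3 genes (287 aged cells, counted among the other cells) had Ccl5 in 17.8%, Pdcd1 in 13.6%, Nkg7 in 4.18% and Gzmk in 0.697%, at a median depth of 9376 UMIs. Cells with all 3 had Ccl5 in 92.0%, Pdcd1 in 25.2%, Nkg7 in 93.3% and Gzmk in 67.7%, at a median of 6723 UMIs.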
